A study of Mus musculus with 36 samples.

Results

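RNA from the palates of wild-type (WT, TGFβ3+/+) mouse embryos at embryonic day 16.5 (E16.5) was compared with RNA from WT palates at E14.5. The members of this comparison are the 8 libraries titled WT at these 2 ages, of 36 in the whole series, and they come from 2 biological replicates per age with 2 sequencing lanes each. Every embryo of the series carried the C57BL/6 background, and the WT embryos were littermates from matings of TGFβ3+/- parents, so neither WT group carries a transgene or a treatment and both have 2 intact copies of TGFβ3. The other libraries hold TGFβ3+/- and TGFβ3-/- palates of the same ages and all 3 genotypes at E15.5. A replicate is called an animal below, although the sources used here do not say whether it was 1 embryo or a pool. The paper describes them as independent biological replicates, but the spread between them may not be that between single embryos. The p-values rest on the spread within all 9 groups of the series, 18 animals of all genotypes and ages in 1 model, and not on the WT animals alone. The unit throughout is FPKM, fragments scaled to the length of the transcript and to the mapped fragments of the library, a level already scaled for gene length and library size.

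The secondary palate is built from a pair of shelves of neural crest derived mesenchyme covered by epithelium. Around the first of these ages the shelves lie above the tongue and meet at the midline, and by the second the epithelial seam between them has gone and the front part of the roof of the mouth is turning into bone. The oral face of the palate is lined by a stratified squamous epithelium that keratinizes, whereas its nasal face is lined by a respiratory type epithelium with ciliated and secretory cells. Comparing the ages in WT asks which genes follow this course when TGFβ3, a growth factor known for its part in seam removal, is intact.

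The tables of the 8 libraries listed between 21377 and 24837 assembled loci each, and 12589 to 13449 genes received a level in a lane. The 95% intervals given with the loci cover counting error only, and their median half-width was 12.5% to 12.9% of the FPKM at E14.5 and 13.5% to 14.8% at E16.5. Between the lanes of an animal Pearson's r over genes was 0.976 to 0.981, between animals 0.965 at E14.5 and 0.935 at E16.5, and between animals of different ages 0.893 to 0.902. All E14.5 libraries were run in lanes of their own and so were those of E16.5, so a difference between the ages cannot be told apart from one between lanes.

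The labelled tissue was checked with markers. All 8 markers of palatal mesenchyme and all 6 of oral and nasal epithelium had a level in each animal. The summed mesenchyme markers were 219 and 259.9 FPKM at E14.5 and 115 and 118 at E16.5, while summed epithelial markers were 111 and 153 at E14.5 and 311 and 380 at E16.5. Neighbouring tissues also contributed, and not evenly between animals of 1 age. The 3 cartilage markers summed to 1194 FPKM in E14.5 replicate 1 and to 229.8 in replicate 2. The 4 muscle markers summed to 359 and 154 at E14.5 and to 407 and 139 at E16.5. Markers of brain summed to 58.1 in E16.5 replicate 1 against 15.6 in replicate 2, and those of pituitary to 17.4 against 2.88 (4 and 4 markers, and Cga was at no level in any animal). The brain sums differed mainly by Snap25 (49.3 against 6.70 FPKM). Neurod1 was alike in both animals (8.16 and 8.17), and Gfap was higher in replicate 2 (0.237 against 0.578). The 4 markers of choroid plexus and retina summed to 40.2 FPKM in E16.5 replicate 1 against 0.686 in replicate 2, mainly by Ttr (39.9 against 0.686). The pituitary marker Gh had a level in E16.5 replicate 1 alone (3.48). In bulk tissue, fewer cells of a type and less RNA per cell cannot be told apart. The animals also differed in sex-linked RNA. E14.5 replicate 1 had Y-linked RNA (Ddx3y at 14.0 FPKM) and Xist at 0.0479, both E16.5 animals had Xist (63.1 and 101.1 FPKM) and no locus at the 4 Y-linked genes looked at, and E14.5 replicate 2 had Xist at 128 together with Ddx3y at 1.75. Where leaving out 1 of these animals ended the call of a gene whose values are given below, this is said in the same paragraph, and where only 1 animal of an age had a level that animal could not be left out.

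**Figure D1:**
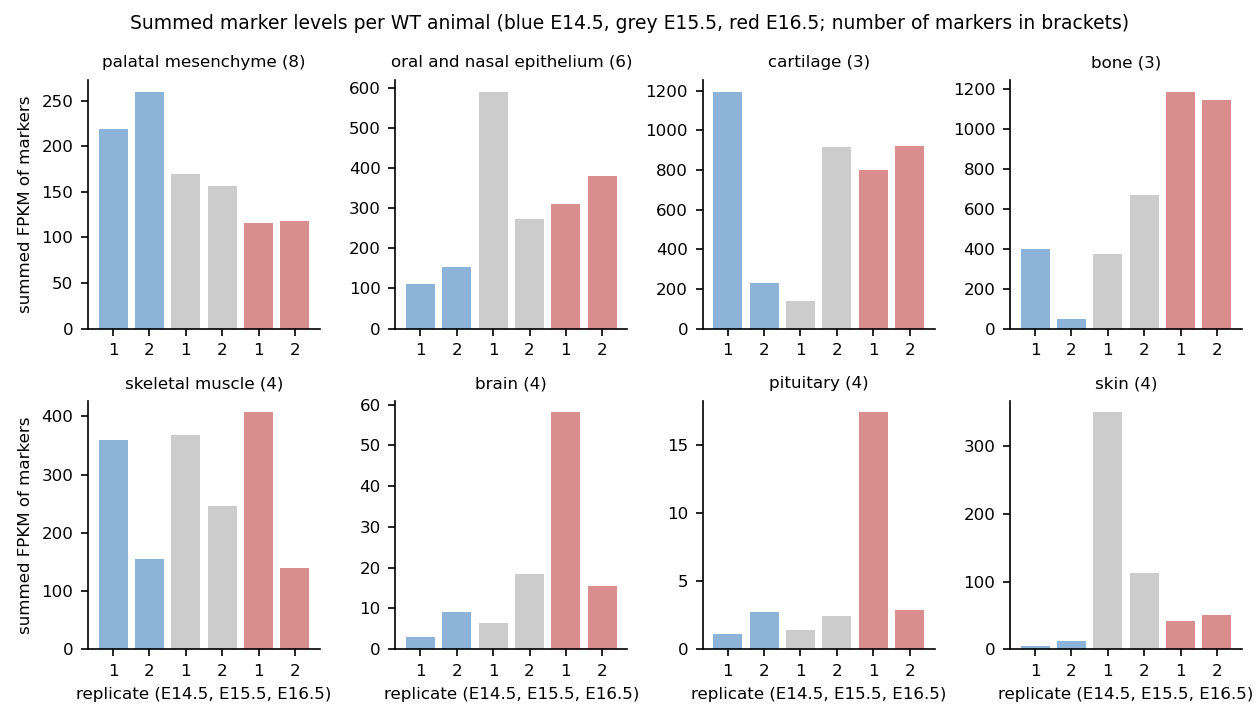
Summed FPKM of fixed marker genes (vertical axis, number of markers in brackets) in each WT animal, with bars for replicates 1 and 2 of E14.5 (blue), E15.5 (grey) and E16.5 (red). Mesenchyme markers were lower and epithelial and bone markers higher in both E16.5 animals than in both E14.5 animals, while cartilage, muscle, brain and pituitary markers differed between the animals of 1 age.

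Many more genes rose than fell. Of 12683 genes tested, 957 were called up and 81 down at an adjusted p under 0.05 (limma on log2(FPKM + 1), Benjamini and Hochberg over all genes tested) and a fold change of at least 2, so 7.55% of tested genes were called up and 0.639% down, 8.18% in all. The median log2 fold change of all tested genes was 0.09, and scaling each animal by a median ratio brought it to 0.03 with 875 genes up and 103 down. Genes called up were mostly low at the start, with a median of 1.54 FPKM at E14.5 and 8.04 at E16.5, and 376 of them had a mean under 1 FPKM at E14.5. Genes called down were abundant at the start, with a median of 26.2 FPKM at E14.5 and 10.4 at E16.5. At least 4-fold changes were found in 252 genes up and 6 down, and at least 16-fold changes in 27 up and 2 down. Without a fold threshold 1952 genes passed the adjusted p upward (15.4% of those tested) and 810 downward (6.39%). Of 11527 genes with a level in all 4 animals, 35.3% had both E16.5 animals above both E14.5 animals and 24.5% had both below. Ages that do not overlap were thus common among all tested genes. Of the 957 genes up, 161 had a level in fewer than 4 animals, where an animal without an unshared locus was treated as missing, and each such gene is marked where it is named. Leaving out 1 animal gave between 725 and 1179 genes up and between 71 and 93 down. The lowest number up came without E14.5 replicate 1, the one animal with high Y-linked RNA, and 630 of those genes were shared with the 957.

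**Figure D2:**
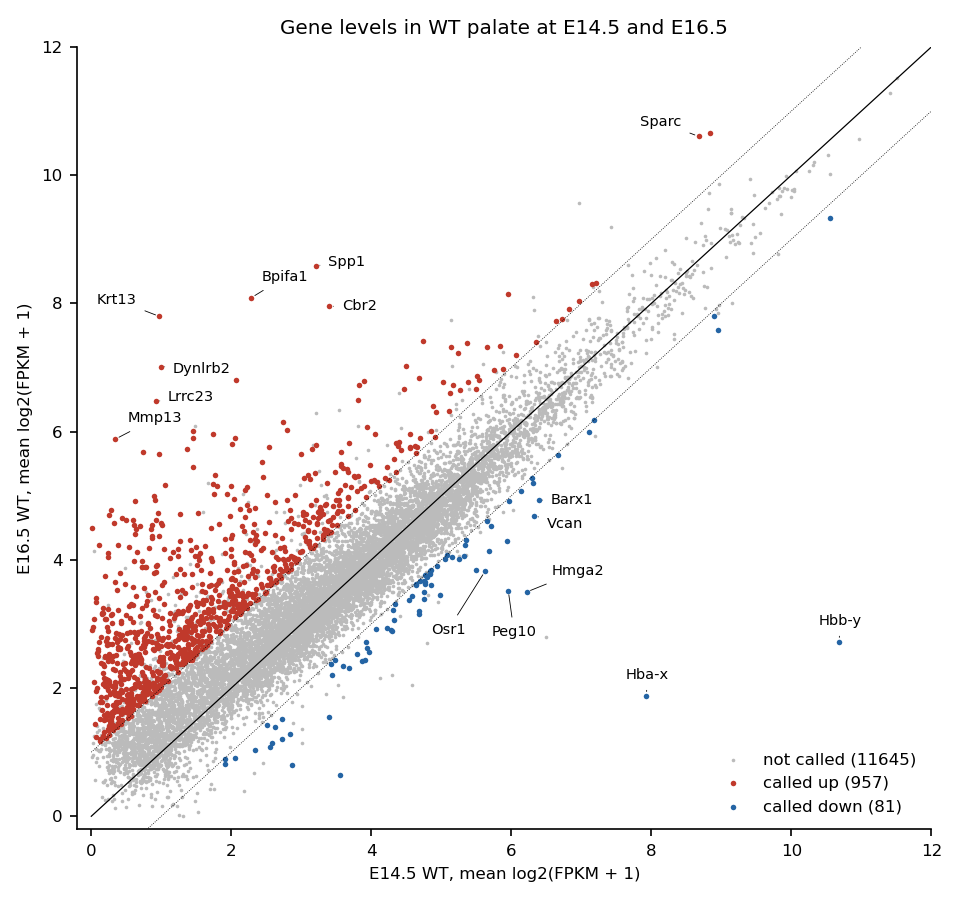
Mean log2(FPKM + 1) of each tested gene at E14.5 (horizontal) and E16.5 (vertical) in WT, with genes called up in red (957), down in blue (81) and the rest in grey, the solid line marking equal levels and the dotted lines a 2-fold difference. Red points crowd the low end of the E14.5 axis, while the embryonic globins Hbb-y and Hba-x lie farthest below the line.

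In genes called between E14.5 and E16.5, the E15.5 mean mostly fell between the other means. The E15.5 WT animals were not compared with another age here but entered the estimate of the spread. Among the 740 genes called up with a level in all 6 WT animals, the E15.5 mean lay between the other means in 689, beyond that of E16.5 in 46 and below that of E14.5 in 5, with a median of 50.6% of the log2 change completed. Among 70 genes called down with 6 levels, 66 had an E15.5 mean between the others, with a median of 54.2% completed. Called genes were chosen for a gap between E14.5 and E16.5, which by itself favours an E15.5 mean inside that gap. No such share is given for all tested genes, so these counts do not show a steady course. The E15.5 animals were not alike in skin markers (350 and 113 FPKM summed), and epithelial genes such as Krt1 (155 and 42.0 FPKM) were higher in both of them than at E16.5 (30.5 and 38.8).

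**Figure D3:**
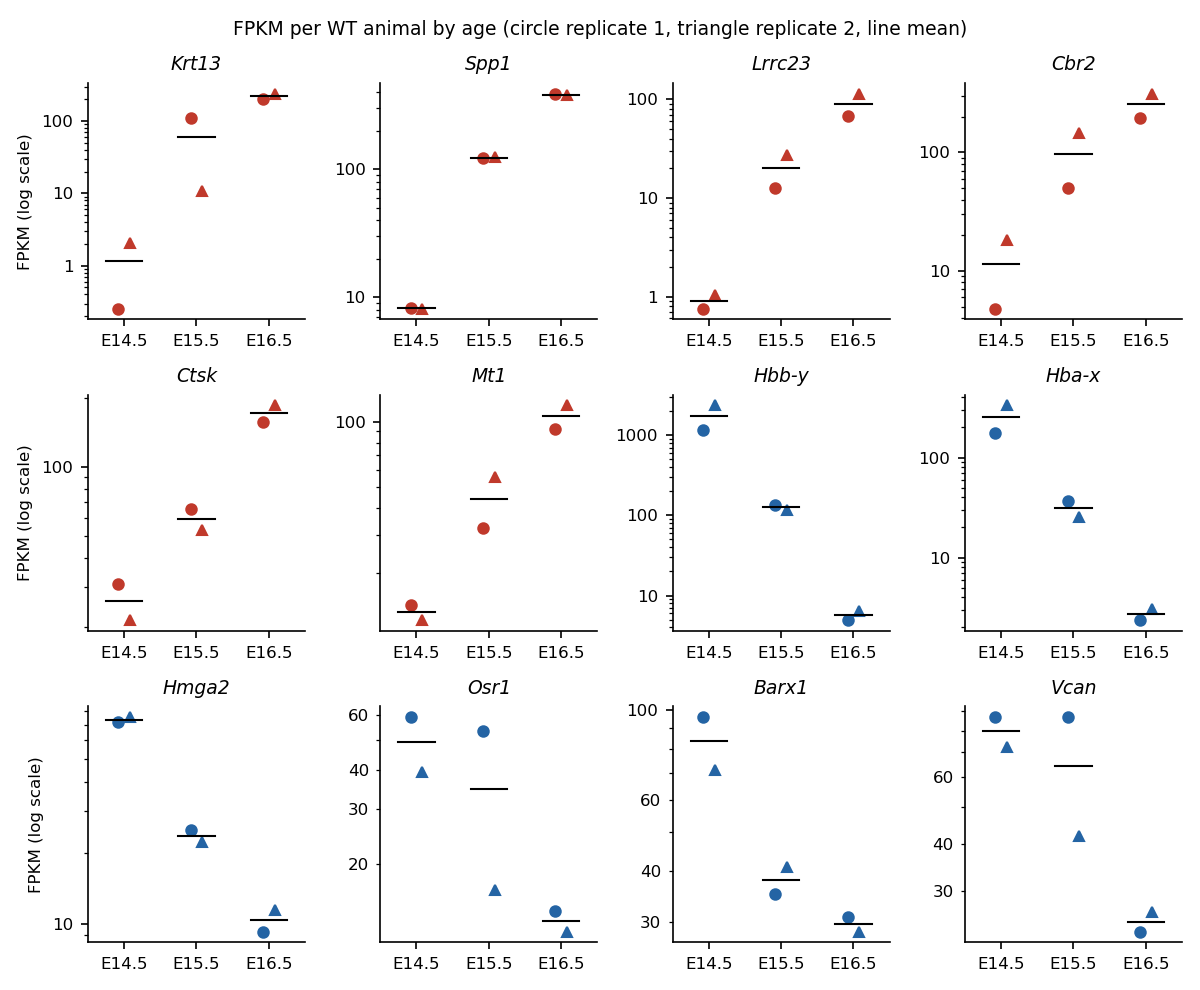
FPKM (log scale) of 12 genes in each WT animal by embryonic age in days, with circles for replicate 1, triangles for replicate 2 and lines for the mean of an age. In all 12 genes, each of them called, the E14.5 and E16.5 animals did not overlap. Over all 11527 genes with a level in 4 animals this held for 35.3% upward and 24.5% downward.

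To describe the changes by function, 45 gene lists were used. Lists of airway and nasal secretory epithelium, stratified epithelium, motile cilia and bone matrix held the highest shares of genes called up among lists with at least 8 members tested, and a list of palatal mesenchyme genes the highest share called down among lists with at least 20 members tested. Median log2 fold changes of the lists ran from 3.19 for secretory epithelium to -0.57 for palatal mesenchyme, apart from the 2 embryonic globins, beside 0.09 for all genes. Counts of list members called up or down stand beside 7.55% and 0.639% of all tested genes. Counts that passed the adjusted p alone stand beside 15.4% upward and 6.39% downward.

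**Figure D4:**
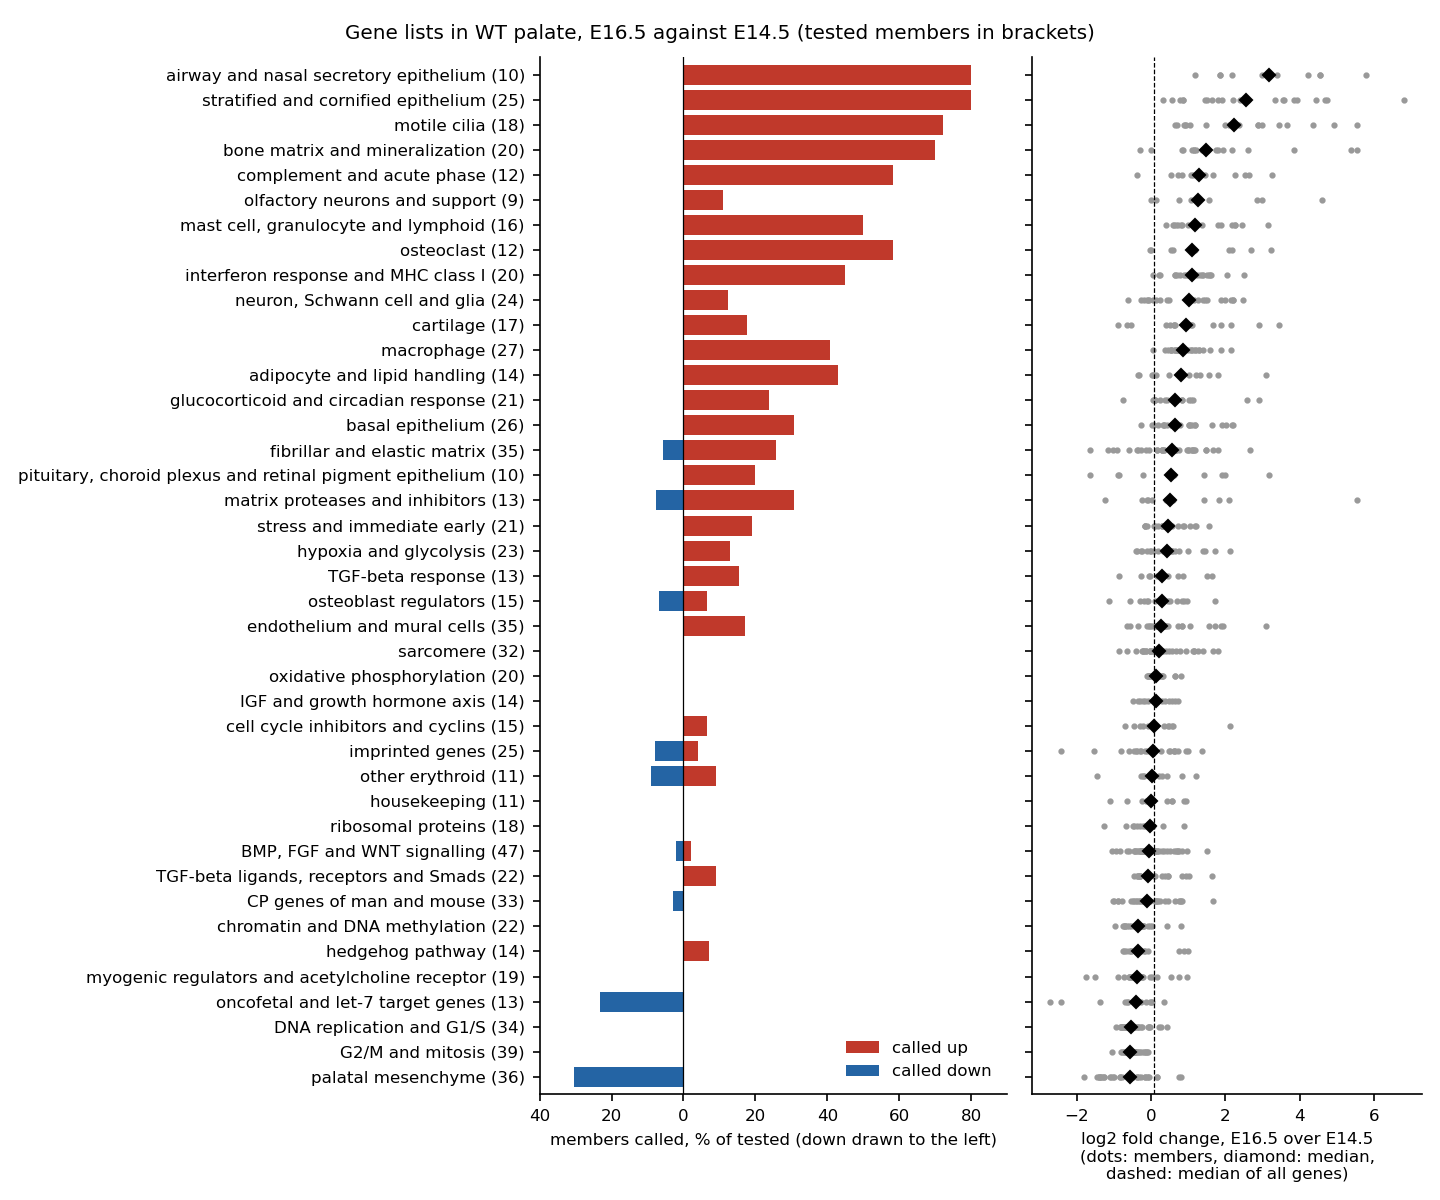
Left, the share of tested members called up (red) or down (blue, drawn leftward) in each list with at least 8 tested members (number in brackets); right, the log2 fold change of each member (dots), their median (diamond) and the median of all genes (dashed line). Epithelial, ciliary and bone lists lie at the top and palatal mesenchyme and cell division lists at the bottom.

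Genes of stratified and cornified epithelium rose together. Of 25 tested members 20 were called up, none was called down, and the median log2 fold change was 2.56. Krt13 and Krt4 form the keratin pair of the suprabasal layers of moist oral epithelium. Krt13, which spans bases 99978641 to 99982880 of chromosome 11 (NCBIM37, minus strand) in 9 exon blocks, was at 0.255 and 2.07 FPKM in the E14.5 animals, 110 and 10.6 in those of E15.5 and 205 and 239 in those of E16.5. Its log2 fold change of 6.82 ± 0.84 (standard error, limma adjusted p = 0.000607) was the largest of all genes called. Krt4 was at 1.78 and 1.68 FPKM at E14.5 and at 59.6 and 57.3 at E16.5, a log2 fold change of 4.45 ± 0.45. The animals of the 2 ages were far apart in both keratins. Krt6a, a keratin of oral and hair follicle epithelium, went from 2.87 and 3.55 to 95.7 and 127 FPKM, and its reads can be hard to separate from those of the similar Krt6b. Dmkn, a secreted protein of differentiating keratinocytes, went from 0.25 and 2.03 to 41.8 and 58.3 FPKM. Cornified envelope precursors had a level in 3 animals, with Sprr3 at 0.524 FPKM in the one E14.5 animal and 20.5 and 24.4 at E16.5, and Sprr1a at 1.00 against 26.1 and 19.98. Krt1, the keratin of dry cornified epithelium, rose from 1.43 and 3.95 to 30.5 and 38.8 FPKM, a call lost without at least 1 of the 4 animals. The count of members called up was 14 to 16 when any 1 animal was left out, and 7 in a fit of WT animals alone.

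In the basal layer the rise was smaller. Of 26 tested genes of basal epithelium 8 were called up, with a median log2 fold change of 0.64. Krt5, the keratin of basal cells, was at 34.3 and 33.9 FPKM at E14.5 and 148 and 169 at E16.5 (log2 fold change 2.18 ± 0.35, limma adjusted p = 0.00146). Krt15 went from 46.5 and 34.7 to 161 and 170 FPKM, and Perp, a desmosome component under control of p63, from 12.99 and 18.6 to 58.4 and 65.0. Krt14, the partner of Krt5, was at 29.2 and 50.6 FPKM at E14.5 and 80.1 and 99.3 at E16.5, and its log2 fold change of 1.19 ± 0.53 did not pass the test (adjusted p = 0.149). Trp63, the master regulator of stratified epithelium, was at 5.92 and 7.85 FPKM at E14.5 and 6.96 and 9.03 at E16.5. Its groups overlapped. Calls of Cdh1, Lamb3, Col17a1 and Krt8 were lost without E14.5 replicate 1 or E16.5 replicate 2, and the count fell to 4 without either.

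Most tested genes of motile cilia rose, and most of those were low at E14.5. Of 18 tested members 13 were called up, none down (Tuba1a and Tubb2b, tubulins abundant in other cells too, were among the 5 not called), and all 18 log2 fold changes were above 0 with a median of 2.24. A further 9 listed members had no locus in either E14.5 animal and an FPKM above 0 in both E16.5 animals, and were not tested. Lrrc23, a radial spoke protein, spans bases 124719881 to 124729745 of chromosome 6 (NCBIM37, minus strand). It was at 0.754 and 1.04 FPKM in the E14.5 animals, 12.7 and 27.3 in those of E15.5 and 67.3 and 114 in those of E16.5, a log2 fold change of 5.55 ± 0.34 (limma adjusted p = 3.62e-05). Dynlrb2, a dynein light chain that is not on the list, was among the largest changes of all, with 0.985 FPKM in the one E14.5 animal with a level and 98.5 and 167 at E16.5. Foxj1, the transcription factor that switches on motile ciliogenesis, was at 1.01 and 2.30 FPKM at E14.5 and at 52.2 in the one E16.5 animal with a level. Tekt1, a tektin of the axonemal microtubules, went from 1.198 and 1.65 to 17.9 and 35.7 FPKM, Rsph1, a radial spoke head protein, from 0.674 in 1 animal to 38.4 and 65.5, and Enkur from 0.432 and 0.483 to 12.7 and 23.6. In each of these genes both E16.5 animals, or the one with a level, were above every E14.5 animal, and replicate 2 of E16.5 was the higher where both had a level. The multiciliation regulator Mcidas (Gm6320 in the annotation) had 0.140 FPKM in 1 E14.5 animal and 5.40 and 10.2 at E16.5. Rfx2 and Rfx3, factors that bind the X-box of ciliary promoters, changed less, with log2 fold changes of 0.93 ± 0.18 and 0.69 ± 0.18 that passed the adjusted p (0.0049 and 0.0178) but not the fold threshold. The count of members called up was 9 to 14 with 1 animal left out and 20 when a lane without a locus was counted as 0.

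Some ciliary genes hold the RFX binding letters GTTGCC, one arm of the X-box, near their starts. In the 250 bases before the start (RefSeq, GRCm38.p6, both strands searched) these letters were found for 5 of the 9 called ciliary genes with a promoter sequence (Dnaic2, Enkur, Lrrc23, Tekt1 and Tekt2) and for 12.7% of 8824 tested genes. They were found for 9 of 17 listed ciliary genes, called or not, and for 17.6% of 635 genes called up. The promoters of the 2 largest ciliary changes are shown because both hold the letters within the last 150 bases, in capitals, at 39 bases before the start in Lrrc23 (chr6:124779728-124779877, minus strand) and 51 in Dynlrb2 (chr8:116504865-116505014, plus strand). A match of letters is a description and not a binding site.
Lrrc23: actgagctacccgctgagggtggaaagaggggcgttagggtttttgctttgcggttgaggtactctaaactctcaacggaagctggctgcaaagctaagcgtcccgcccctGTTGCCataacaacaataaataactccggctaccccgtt
Dynlrb2: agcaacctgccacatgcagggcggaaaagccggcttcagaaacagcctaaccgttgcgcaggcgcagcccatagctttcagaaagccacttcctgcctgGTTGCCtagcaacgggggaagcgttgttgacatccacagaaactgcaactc

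Secretory genes of airway and nasal epithelium rose as well. Of 10 tested members 8 were called up, with the highest median of the lists with at least 8 members tested. Bpifa1 encodes a secreted antimicrobial protein of the upper airway and was at 3.88 FPKM in the one E14.5 animal with a level, with 23.9 and 129 a day later and 283 and 260 in the E16.5 animals. Cbr2, a carbonyl reductase of airway epithelium, was at 4.81 and 18.2 FPKM at E14.5 and 196 and 313 at E16.5 (log2 fold change 4.55 ± 0.63, limma adjusted p = 0.000607). Cyp2f2, a cytochrome P450 of club cells, went from 1.26 and 3.96 to 49.5 and 75.6 FPKM, and Reg3g, a secreted lectin, from 1.75 in 1 animal to 52.8 and 76.1. E14.5 replicate 2 was the higher of the E14.5 animals, or the only one with a level, in all 4 genes. The count of members called up was 5 without E14.5 replicate 1 and 3 in a fit of WT animals alone. Of 9 tested olfactory genes 1 was called up (Stoml3, from 0.0338 and 0.207 to 6.70 and 9.24 FPKM), and all 9 log2 fold changes were above 0. The defining markers of olfactory neurons, Omp and Gng13, had no level in any WT animal, which can follow from a locus shared with another gene and is not a level of 0. Cnga2 (3.11 and 4.44 FPKM) and S100a5 (4.38 and 3.28), also listed for these neurons, had a level in both E16.5 animals and no locus at E14.5.

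Bone genes rose beside those of the surface epithelia. Of 20 tested members of bone matrix and mineralization 14 were called up, none down, with a median log2 fold change of 1.47. Spp1 (osteopontin), a phosphoprotein of bone matrix also made by osteoclasts, spans bases 104864137 to 104870069 of chromosome 5 (NCBIM37, plus strand). It was at 8.29 and 8.16 FPKM in the E14.5 animals, 122 and 124 in those of E15.5 and 389 and 378 in those of E16.5, a log2 fold change of 5.38 ± 0.35 (limma adjusted p = 1.64e-05). The 2 animals of an age differed little and the ages did not overlap. Dmp1, a matrix protein of cells turning into osteocytes, went from 1.23 and 0.172 to 21.7 and 22.6 FPKM. Mmp13, a collagenase of bone and hypertrophic cartilage, had 0.268 FPKM in the one E14.5 animal with a level and 60.3 and 55.8 at E16.5. Among abundant matrix genes Sparc went from 524 and 318 to 1438 and 1683 FPKM and Col1a2, a chain of type I collagen, from 623 and 337 to 1660 and 1571. Both were apart between the ages, and Col1a1 had no level of its own here. Ibsp, bone sialoprotein, was at 390 and 38.9 FPKM at E14.5 and 777 and 743 at E16.5, and with the E14.5 animals so far apart its log2 fold change of 2.61 ± 0.86 missed the threshold (adjusted p = 0.0504). The bone regulators moved less, with 1 of 15 called up (Col22a1, not called without the second replicate of either age) and 1 down (Dlx6, with a level in 2 animals), and Sp7, the osterix gene, was at 31.8 and 21.5 FPKM at E14.5 and 35.9 and 51.1 at E16.5. Without E14.5 replicate 1, where cartilage and Ibsp were high, 16 bone matrix genes were called, and without replicate 2 9.

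**Figure D5:**
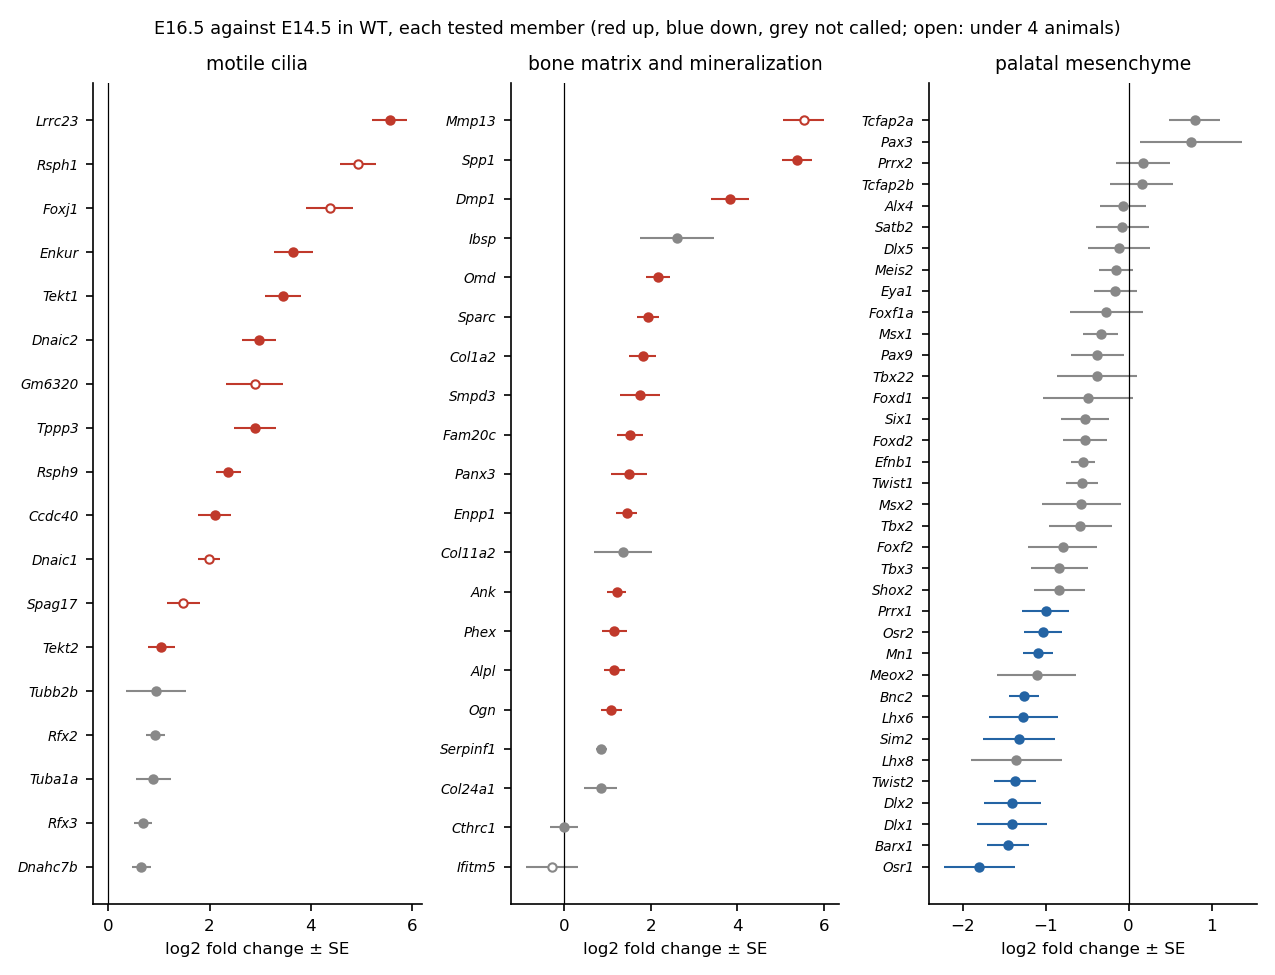
Log2 fold change of E16.5 over E14.5 (horizontal, with the standard error from limma) for each tested gene of motile cilia, bone matrix and palatal mesenchyme, red where called up, blue where called down, grey where not called and open where fewer than 4 animals had a level. Ciliary and bone genes lie to the right of 0 with few exceptions, and 32 of 36 mesenchyme genes lie to its left.

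Letters of the RUNX site, TGTGGT, which the bone regulator RUNX2 binds, were found in the 250 bases before the start of 5 of 12 called bone matrix genes with a promoter sequence (Dmp1, Enpp1, Mmp13, Ogn and Spp1) and of 12.7% of tested genes, both strands searched. The share among 635 genes called up was 16.9%. The promoters of the 2 largest bone changes are printed with the reverse letters ACCACA in capitals and, for Mmp13, also the TATA box letters TATAAA. They are the first start of Spp1 (chr5:104434961-104435110) and that of Mmp13 (chr9:7272364-7272513), both GRCm38.p6, plus strand. Runx2 had no level in these tables by the rule used, so its RNA was not compared.
Spp1: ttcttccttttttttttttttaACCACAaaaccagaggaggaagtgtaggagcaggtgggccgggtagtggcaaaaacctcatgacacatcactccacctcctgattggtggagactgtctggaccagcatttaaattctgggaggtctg
Mmp13: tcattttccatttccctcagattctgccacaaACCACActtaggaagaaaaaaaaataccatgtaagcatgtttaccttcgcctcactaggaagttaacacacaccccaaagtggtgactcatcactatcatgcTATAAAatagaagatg

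Genes of osteoclasts, the cells that resorb bone, rose too. Of 12 tested members 7 were called up, and the count was 6 or 7 with any 1 animal left out. Ctsk (cathepsin K), the main collagen-degrading protease of these cells, was at 30.7 and 21.4 FPKM in the E14.5 animals, 65.2 and 53.1 in those of E15.5 and 157 and 185 in those of E16.5, a log2 fold change of 2.68 ± 0.28 (limma adjusted p = 0.00013). Acp5, the tartrate-resistant acid phosphatase, went from 6.93 and 3.22 to 43.9 and 64.6 FPKM, and Mmp9 from 13.1 and 9.02 to 42.4 and 59.2. In all 3 genes the groups were apart by more than the range within either age. Fibroblast matrix was split. Of 35 tested genes of fibrillar and elastic matrix 9 were called up and 2 down. Fmod (fibromodulin) went from 8.12 and 5.94 to 60.03 and 40.05 FPKM and Aspn (asporin) from 48.8 and 50.2 to 178 and 142, both small leucine-rich proteoglycans that bind collagen. Vcan (versican), a large hyaluronan-binding proteoglycan of early mesenchyme, fell from 86.7 and 72.4 to 23.3 and 26.3 FPKM, by 1.64 ± 0.33 on the log2 scale (limma adjusted p = 0.00525). Col3a1 and Postn, abundant fibroblast genes, were at 493 and 369 against 468 and 493 and at 216 and 360 against 374 and 316 FPKM and were not called. Mmp11, a stromelysin of mesenchyme, fell from 37.6 and 37.0 to 14.3 and 16.0 FPKM while Mmp13 and Mmp9 rose.

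Cartilage genes depended on the animal. Of 17 tested members 3 were called up (Comp, Ucma and Snorc, annotated as 3110079O15Rik), but 1 without E14.5 replicate 2 or without E16.5 replicate 1. Comp, an oligomeric matrix protein of cartilage and tendon, went from 4.01 and 1.24 to 46.9 and 26.7 FPKM. The call of Comp was lost without E14.5 replicate 2 (log2 fold change 2.86) or without E16.5 replicate 1 (3.05). Col2a1, the main cartilage collagen, was at 997 and 202 FPKM in the E14.5 animals, 111 and 712 in those of E15.5 and 651 and 772 in those of E16.5, so its ages overlapped.

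Genes of immune cells were called up and none was called down. Of 27 tested macrophage genes 11 were called up and 23 passed the adjusted p upward, beside 7.55% and 15.4% of all tested genes. None was down and all 27 log2 fold changes were above 0 (median 0.87). F13a1, a coagulation factor subunit of tissue macrophages, was at 2.97 and 3.02 FPKM in the E14.5 animals, 11.8 and 12.1 in those of E15.5 and 19.9 and 14.4 in those of E16.5 (log2 fold change 2.16 ± 0.19, limma adjusted p = 4.81e-05). Csf1r, the receptor that macrophages need to survive, went from 4.95 and 4.72 to 12.02 and 12.3 FPKM, and Lyz2 (lysozyme) from 11.6 and 10.1 to 36.2 and 50.8. In all 3 the ages did not overlap. Mast cell genes were already high at E15.5, with Cma1, a chymase, at 1.86 and 1.196 FPKM in the E14.5 animals, 40.3 and 13.3 in those of E15.5 and 12.5 and 12.9 in those of E16.5, and Hdc, the histamine-forming enzyme, at 0.835 and 0.497, 13.9 and 18.95 and 10.3 and 18.5. Of 16 tested genes of mast cells, granulocytes and lymphoid cells 8 were called up. Among interferon response and MHC class I genes 9 of 20 were called up, led by Ly6a and Ly6c1, and H2-D1 went from 5.70 and 5.54 to 20.9 and 17.9 FPKM, although reads of MHC class I genes are hard to separate from each other. Complement and acute phase genes followed with 7 of 12 called up, among them Hp (haptoglobin) from 0.653 and 0.646 to 11.2 and 19.3 FPKM. Macrophage calls numbered 9 to 13 with 1 animal left out, and 4 with a pseudocount of 5.

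Most vessel genes were not called, while some markers of capillary and lymphatic endothelium and of fat rose. Of 35 tested genes of endothelium and mural cells 6 were called up (median log2 fold change 0.26). Cdh5, the cadherin of all endothelium, was at 23.9 and 32.5 FPKM at E14.5 and 32.4 and 33.6 at E16.5 and was not called. Fabp4, a lipid carrier of capillary endothelium and adipocytes, went from 3.03 and 2.64 to 36.5 and 27.5 FPKM, Lyve1, a hyaluronan receptor of lymphatic vessels and of some macrophages, from 0.741 and 0.748 to 7.67 and 4.14, and Gpihbp1 from 1.47 and 1.84 to 7.63 and 10.1. Their E16.5 levels were thus several times those at E14.5 in both animals. Of 14 tested genes of adipocytes and lipid handling 6 were called up, among them Dgat2, an enzyme of triglyceride synthesis (5.00 and 4.44 against 11.4 and 15.3 FPKM).

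The metallothioneins Mt1 and Mt2, metal-binding proteins induced by metals and glucocorticoids, were among the clearest rises outside the tissue lists. Mt1 was at 14.2 and 12.2 FPKM in the E14.5 animals, 32.3 and 55.6 in those of E15.5 and 92.7 and 119 in those of E16.5 (log2 fold change 2.90 ± 0.27, limma adjusted p = 6.59e-05). Mt2 went from 11.7 and 5.80 to 51.3 and 58.0 FPKM, and Klf9, a hormone-responsive factor, from 1.77 and 1.84 to 5.33 and 4.92. In their list of 21 tested genes of glucocorticoid and circadian response 5 were called up. Of 23 tested genes of hypoxia and glycolysis 3 were called up, Ndrg1 (6.77 and 8.86 against 34.7 and 40.5 FPKM), Egln3, a prolyl hydroxylase, and Ankrd37, whose call was lost in 3 of the 4 fits without an animal. The abundant glycolytic genes Ldha (330 and 264 against 305 and 240) and Tpi1 (289 and 240 against 263 and 297) were not called. Of 21 tested stress and immediate early genes 4 were called up, led by the small heat shock protein Hspb1 (13.6 and 11.5 against 40.3 and 36.9 FPKM), whose call was lost in 3 of the 4 fits without an animal.

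The deepest falls were those of the embryonic globins, which primitive red cells from the yolk sac make before definitive cells take over. Hbb-y, the embryonic beta-like globin, spans bases 111000259 to 111001754 of chromosome 7 (NCBIM37, minus strand) in 3 exon blocks. It was at 1144 and 2362 FPKM in the E14.5 animals, 135 and 117 in those of E15.5 and 4.93 and 6.39 in those of E16.5, and fell by 7.96 ± 0.50 on the log2 scale (limma adjusted p = 1.64e-05). Hba-x, the embryonic alpha-like globin, went from 177 and 333 to 37.0 and 25.6 and then to 2.36 and 3.03 FPKM, and fell by 6.05 ± 0.42. Both fell in every alternative fit. The adult genes Hbb-b1 (1050 and 2053 against 1407 and 1157 FPKM) and Hbb-b2 (1102 and 2059 against 1162 and 929) were not called, and their ages overlapped. They are near-identical copies whose reads could be split between them. The promoters of both falling genes are given for comparison, with TATA box letters in capitals at 28 bases before the start of Hba-x (chr11:32276450-32276599, plus strand, GRCm38.p6). The 150 bases before Hbb-y (chr7:103853208-103853357, minus strand) hold none of the exact letters searched. These were TATAAA, the GATA letters AGATAA and CACACCC, a form of the CACCC box. Shorter or variant forms were not searched, and both printed sequences hold the letters CACCC, so the absence of a match does not show that such an element is lacking. The letters TATAAA were found for 8.44% of tested genes, AGATAA for 7.3% and CACACCC for 9.1%.
Hba-x: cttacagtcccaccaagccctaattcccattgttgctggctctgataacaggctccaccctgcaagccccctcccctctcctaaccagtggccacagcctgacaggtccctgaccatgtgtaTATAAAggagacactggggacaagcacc
Hbb-y: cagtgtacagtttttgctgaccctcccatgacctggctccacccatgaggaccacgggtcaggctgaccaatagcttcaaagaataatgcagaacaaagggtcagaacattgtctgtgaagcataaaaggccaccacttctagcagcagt

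Some oncofetal genes also fell. Of 13 tested genes of a list of oncofetal and let-7 target genes 3 were called down (Hmga2, Peg10 and Igf2bp1), none up, and 11 log2 fold changes were below 0 (median -0.40). Hmga2, a chromatin protein of growing embryonic cells, spans bases 119798331 to 119913525 of chromosome 10 (NCBIM37, minus strand). It was at 71.5 and 75.5 FPKM in the E14.5 animals, 25.05 and 22.3 in those of E15.5 and 9.26 and 11.4 in those of E16.5, and fell by 2.72 ± 0.28 on the log2 scale (limma adjusted p = 0.000112). Igf2bp1, an RNA-binding protein of fetal tissues, fell from 13.4 and 10.4 to 3.83 and 4.09 FPKM. Peg10, an imprinted gene derived from a retrotransposon, was at 44.1 and 84.6 FPKM at E14.5 and 15.7 and 6.86 at E16.5, and its call was lost without E14.5 replicate 2 or without E16.5 replicate 2. Hmga2 and Igf2bp1 are known targets of the let-7 miRNAs, which pair with messenger RNAs through their seed, bases 2 to 8. The mature let-7a is printed with the seed in capitals (RefSeq), followed by the 4 places in the 3' UTR of Hmga2 (GENCODE vM1, 3014 bases) that hold its complement CTACCTC, in capitals.
let-7a-5p: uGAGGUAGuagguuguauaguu
Hmga2 site 1: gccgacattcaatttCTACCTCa
Hmga2 site 2: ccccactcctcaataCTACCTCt
Hmga2 site 3: ctgatttgcaaggaaCTACCTCc
Hmga2 site 4: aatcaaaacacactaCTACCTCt

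Among all genes the same letters were found in the longest 3' UTR of 9 of 76 genes called down (11.8%), of 7.4% of genes called up and of 10.6% of 12148 tested genes with a 3' UTR. Igf2bp1 held 4 and Foxp2 and Zcchc3 held 2 each. These libraries were made from poly(A) RNA and hold no measure of mature miRNAs.

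Some genes listed for the palatal mesenchyme, most of which are transcription factors, fell. Of 36 tested members 11 were called down, none up, and 32 log2 fold changes were below 0 (median -0.57). Osr1, a zinc finger factor of craniofacial mesenchyme, spans bases 9581248 to 9588305 of chromosome 12 (NCBIM37, plus strand). It was at 59.2 and 39.5 FPKM in the E14.5 animals, 53.2 and 16.5 in those of E15.5 and 14.2 and 12.2 in those of E16.5, and fell by 1.80 ± 0.43 on the log2 scale (limma adjusted p = 0.0126). Barx1, a homeobox factor of the posterior palate and molar mesenchyme, went from 96.2 and 71.2 to 30.8 and 28.4 FPKM and fell by 1.46 ± 0.25. The E15.5 animals were close to E16.5 for Barx1 and far apart for Osr1. Twist2 (21.1 and 16.1 against 6.69 and 6.34 FPKM) and Bnc2 (9.99 and 16.6 against 4.67 and 4.93) fell, and so did the neighbouring homeobox genes Dlx1 (24.1 and 14.4 against 6.83 and 6.04) and Dlx2 (14.5 and 14.8 against 5.18 and 4.68). The other members called were Osr2 (lost without at least 1 of the 4 animals), Mn1, Lhx6, Sim2 and Prrx1. Not all palate genes moved, since Msx1, a homeobox factor of the anterior palate, was at 44.4 and 40.1 FPKM at E14.5 and 30.3 and 36.5 at E16.5 (log2 fold change -0.34 ± 0.21, adjusted p = 0.289). Six2, a homeobox factor outside the list and among the largest falls, was at 61.5 and 41.4 FPKM at E14.5 and 17.1 and 16.1 at E16.5. The number of listed genes called down was 11 without E14.5 replicate 1, 5 without E14.5 replicate 2 and 7 without either E16.5 animal, and the calls of Dlx1, Dlx2, Sim2, Lhx6, Prrx1 and Six2 were lost in 3 or more of these 4 fits and those of Osr1 without E14.5 replicate 1 and of Bnc2 (under 2-fold) without E14.5 replicate 2. Summed markers of bone and epithelium were higher in both E16.5 animals, as given above, and the part of tissue makeup in the falls was not tested.

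The remaining large falls were in genes of mixed function. Fndc3c1, an X-linked gene, went from 10.2 and 8.85 to 2.02 and 1.83 FPKM (log2 fold change -1.85 ± 0.22, limma adjusted p = 0.000288). Cpsf1 and Hnrnpr, which process messenger RNA, went from 40.7 and 47.7 to 12.8 and 13.8 and from 39.3 and 92.0 to 20.04 and 17.3 FPKM, but their calls were lost in all 4 and in 3 fits without an animal. Gm10800 had a level in 3 animals, and its call was lost without E14.5 replicate 1. Farp2 had a level in 2 animals, and neither can be left out.

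Of 22 tested TGFβ ligands, receptors and Smads 2 were called up and none down, a share near the 7.55% of all tested genes, with a median log2 fold change of -0.07. Tgfb1, the ligand of immune cells and bone among others, was at 10.6 and 8.68 FPKM in the E14.5 animals, 19.8 and 14.0 in those of E15.5 and 17.7 and 24.1 in those of E16.5 (log2 fold change 1.03 ± 0.19, limma adjusted p = 0.00364), and was under 2-fold without E14.5 replicate 2 (0.91) or E16.5 replicate 2 (0.82). Ltbp2, a latent TGFβ binding protein of elastic fibres, went from 1.31 and 1.96 to 7.30 and 7.01 FPKM, and its call was lost without replicate 1 of either age. Tgfb3, the targeted gene of the series, was at 32.3 and 33.8 FPKM in the E14.5 animals, 30.2 and 34.3 in those of E15.5 and 27.6 and 35.3 in those of E16.5, so the ages overlapped (log2 fold change -0.08 ± 0.16). Tgfb2 (22.6 and 18.2 against 13.5 and 15.6 FPKM) and Tgfbr1 (28.2 and 31.5 against 26.6 and 30.4) were not called. The receptor Tgfbr2 was at 11.5 and 11.7 against 15.1 and 15.3 FPKM, a log2 fold change of 0.36 ± 0.11 that passed the adjusted p (0.0314) but not the fold threshold. Of 13 tested TGFβ response genes Ltbp2 and Bhlhe40 were called up.

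In the hedgehog pathway 1 of 14 tested genes was called up and none down, a share near the 7.55% of all tested genes. That gene was Hhip, which binds and restrains the ligands (1.58 and 2.87 against 4.68 and 6.09 FPKM). Gli1, the transcriptional target and effector of the pathway, was at 29.7 and 34.0 FPKM at E14.5 and 17.1 and 19.96 at E16.5, and Gas1, a coreceptor, at 73.4 and 66.0 against 45.7 and 50.3. Both were lower in each E16.5 animal and passed the adjusted p (0.0254 and 0.00539) but not the fold threshold. In all, 4 of the 14 genes did so downward, beside 6.39% of all tested genes that passed the adjusted p downward. Of 47 tested genes of BMP, FGF and WNT signalling 1 was called up, the WNT inhibitor Wif1 (18.3 and 8.64 against 31.4 and 46.0 FPKM), and 1 down, the WNT receptor Fzd2 (46.5 and 52.3 against 20.4 and 26.6). Each of these calls, that of Hhip included, was lost without at least 1 animal. Of 33 tested genes linked to cleft palate in man and mouse 1 was called down (Prrx1) and none up.

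Most cell division genes fell, with median changes under the fold threshold. Of 34 tested genes of DNA replication 20 passed the adjusted p downward, and of 39 genes of mitosis 23. The share of all tested genes was 6.39%. None of these genes was called, and the medians were -0.54 and -0.56. The deepest log2 fold changes were -0.94 and -1.06, the latter past the fold threshold without passing the adjusted p. Mcm6, a subunit of the replicative helicase, was at 77.9 and 75.0 FPKM at E14.5 and 45.5 and 50.7 at E16.5, and Ccna2 (cyclin A2) at 51.2 and 53.9 against 35.3 and 30.4. Cdkn1a (p21), an inhibitor of cyclin-dependent kinases, rose from 19.9 and 10.2 to 60.1 and 73.5 FPKM (log2 fold change 2.14 ± 0.25, limma adjusted p = 0.000251) and was the one gene called among 15 cell cycle inhibitors and cyclins. Cdkn1c (p57) was at 549 and 388 against 407 and 343 FPKM. Of 22 genes of chromatin and DNA methylation 8 passed the adjusted p downward, beside 6.39% of all tested genes, and none was called.

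Calls of neural and sarcomere genes depended on single animals. Of 24 tested genes of neurons, Schwann cells and glia 3 were called up, 0 without E14.5 replicate 1, 0 without E16.5 replicate 1 and 10 without E16.5 replicate 2. Tubb3, the neuronal beta tubulin, was at 17.2 and 68.9 FPKM at E14.5 and 254 and 66.2 at E16.5, and Fabp7, a lipid carrier of glial precursors, at 15.7 and 25.7 against 271 and 33.4. E16.5 replicate 1 was far above the other animals in both, while replicate 2 lay within the E14.5 range in Tubb3 and a little above it in Fabp7. The brain marker Neurod1 was higher in both E16.5 animals (0.542 and 2.43 against 8.16 and 8.17 FPKM, limma adjusted p = 0.0527) and was not called. Of 32 tested sarcomere genes and 19 myogenic regulators none was called, but 5 sarcomere genes were called up without E16.5 replicate 2. Myod1 (18.4 and 6.51 against 4.06 and 1.58 FPKM) and Myog (49.0 and 19.1 against 15.1 and 6.66), the factors that commit cells to muscle, were lower in both E16.5 animals without passing the test.

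No gene listed for core cell functions was called. None of 18 tested ribosomal protein genes, 20 of oxidative phosphorylation, 11 housekeeping genes or 14 of the IGF axis was called, although 2 of oxidative phosphorylation and 3 housekeeping genes passed the adjusted p upward, and their medians were -0.02, 0.13, 0.00 and 0.13. Among 72 tested genes grouped by the symbols Rps and Rpl, listed or not, 1 was called up (Rps13) and 1 down (Rpl35). Of all tested genes 7.55% were called up and 0.639% down. Actb was at 1060 and 1046 FPKM at E14.5 and 899 and 868 at E16.5. Among 25 imprinted genes Peg10 and Asb4 were called down and Impact up, but without E14.5 replicate 2 none of these 3 was called (limma adjusted p = 0.0597 for Asb4 and 0.273 for Impact), and Impact was not called without E16.5 replicate 1 either. The most abundant, H19 (3184 and 2647 against 2586 and 3285 FPKM) and Igf2 (1041 and 792 against 791 and 845), overlapped between the ages. Of the lists not yet described, 4 of 13 matrix proteases and inhibitors were called up and 1 down (Mmp11), 2 of 10 pituitary, choroid plexus and pigment epithelium genes up (Aqp4 and Clic6), and 1 of 11 other erythroid genes up (Aqp1) and 1 down (Slc4a1). The single tested salivary gland gene was called up (Aqp5, with a level in 3 animals) and none of 4 tooth genes was. The call of Clic6 was lost without E14.5 replicate 1, those of Aqp1 and Aqp5 without E16.5 replicate 2, and that of Slc4a1 without the second replicate of either age.

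Whether the change from E14.5 to E16.5 in WT differed from that in the other genotypes was tested directly. No gene passed the adjusted p for WT against TGFβ3-/- (0 of 12370 tested by limma, with 755 or 6.10% at an unadjusted p under 0.05 and a smallest adjusted p of 0.0532), and none for WT against TGFβ3+/- (0 of 12466, with 615 or 4.93% and 0.0688). The median standard error of the difference over genes called in WT was 0.40 on the log2 scale in both. With the adjustment over all genes tested, all but very large differences could be missed at this number of animals. The lack of a passing gene therefore does not show that the genotypes changed alike. Over the same ages Spp1 changed by 5.38 in WT, 5.51 in TGFβ3-/- and 6.20 in TGFβ3+/- on the log2 scale, Hmga2 by -2.72, -2.41 and -2.07, and Osr1 by -1.80, -1.51 and -1.10, each genotype against its own E14.5 animals.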

How the data were processed

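The authors extracted poly(A) RNA, sequenced paired-end libraries on the Illumina HiSeq, aligned each library to mm9 (NCBIM37) by TopHat 1.4.1 and let Cufflinks 1.3.0 assemble loci and estimate their levels, checking reads with FastQC 0.10.1. The deposited tables give FPKM with its 95% interval per assembled locus, without counts, gene names or strand, so antisense and overlapping genes could not be told apart. FPKM depends on what was assembled in each library, and depth per library was not recoverable from it. The paper reports read numbers per replicate, which differed widely between samples and were not used here.

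Loci were assigned by position to GENCODE vM1 genes (26233 searched, 17270 with a locus), summing FPKM over loci weighted by exonic bases covered. A locus went to the gene with the most exonic bases in it. In a lane, a gene went without a level if its locus took in 50% or more of the exons of a second protein-coding gene, or if loci given to other genes took in 50% or more of its own. Lanes of an animal were averaged. Groups were taken from the sample titles. Genes with at least 1 FPKM in 2 animals and a level in both groups were tested with limma 3.58.1 (R 4.3.3) on log2(FPKM + 1), all 18 animals of 9 groups in 1 model with a mean-variance trend. Fold changes on this scale understate those of low genes. With 2 animals against 2, no exact permutation test of a single gene can pass. On simulated data for this comparison (10335 genes), 38 of 100 2-fold changes, 84 of 100 4-fold changes and 3 of 10135 unchanged genes were called.

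The comparison, the lists (45 lists, 1066 genes, 21 matched through older symbols) and the rule for named genes were chosen with earlier results of these data known. The rule named the 12 largest changes each way, in each list the 4 members of highest level and up to 8 called members of largest change, and the TGFβ ligands and receptors. A few others (Tekt2, Dnaic2 among motif matches, Osr2, Mn1, Trp63, Msx1, Krt1, Rfx2 and Rfx3, Krt6b, Enpp1, Ogn, Foxp2, Zcchc3, markers and sex-linked genes) were named beside these after their values were seen. Alternatives in pseudocount, filter, scaling, lanes, gene level, missing loci, model, calling rule, replicate number and animals included were run. Promoters and miRNAs are from RefSeq (GRCm38.p6).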

Additional observations from a re-analysis of the deposited data

How the results depend on the processing

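In 19 alternatives none of the 154 named genes called reversed its direction, and 43 were called in all of them. In all, 118 genes up and 7 down were called in every alternative. The counts of 957 up and 81 down became 250 and 21 with only WT animals, 333 and 24 with only the 2 ages compared, 364 and 29 with a pseudocount of 5, 1952 and 810 with no fold threshold, and 637 up with a filter of 5 FPKM. Fewer animals leave fewer degrees of freedom for the spread. Leaving out 1 of the 4 animals gave 725 to 1179 up and 71 to 93 down, and 390 and 19 were called in each of these fits. The count with the changed scaling was 875 up and 103 down by median ratio.

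For the change in WT against TGFβ3-/-, 0 genes became 2 with a pseudocount of 0.1, 1 with either other scaling and 0 to 2 with 1 animal left out, the TGFβ3-/- animals included (chosen after seeing the data). For WT against TGFβ3+/- it became 2 with a pseudocount of 0.1, 1 by median ratio and 0 to 1 with 1 animal left out. The cause was not tested.

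With the replicate number as a block, 909 genes were up and 78 down. Deviations of same-numbered animals from their group means correlated at r = -0.0254 over 11527 genes, so the numbers do not pair the animals. Depth limits low genes most, since a locus not assembled in a library is missing and not 0.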

Other observations

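Genes with no locus in either E14.5 animal could not be tested, although many were well above 1 FPKM later. At least 1 FPKM in both E16.5 animals and no locus in any E14.5 WT lane was found for 197 genes, of which 23 reached 10 FPKM in both. The reverse held for 23 genes, of which 3 (Ddx3y, Eif2s3y and Kdm5d) are Y-linked and had no locus in either E16.5 animal, both of which had Xist. Those of the first kind include Ccdc153 (29.0 and 54.5 FPKM at E16.5), Tmem212 (27.4 and 50.5), Meig1 (23.3 and 42.9), Morn5 (14.3 and 30.2) and Tekt4 (11.0 and 18.7). They also include Bglap, the osteocalcin gene (21.9 and 27.1 FPKM), Igfbp7 (47.4 and 41.3), the cornified envelope gene Cnfn (14.2 and 22.9) and the secretoglobin gene Scgb1c1 (6.23 and 11.5). Among the genes with a locus at E14.5 alone were another embryonic globin, Hbb-bh1 (9.78 and 9.42 FPKM at E14.5), and Hand2, a factor of branchial arch mesenchyme (7.84 and 5.48). The absence of an assembled locus is not a level of 0. These genes and the families below were chosen after their values were seen.

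Gene families grouped by symbol moved unevenly. Of 20 tested keratins 14 were called up, of 6 transmembrane serine proteases (Tmprss) 5, of 4 radial spoke genes (Rsph) all 4, of 12 S100 genes 6 and of 13 C-type lectins 5, with none down in any of these. Of 91 coiled-coil domain genes (Ccdc) 21 were called up and 0 down, beside 7.55% up among all tested genes. Ccdc40 and Ccdc113, both known from cilia, are among the 21. Of 7 Dlx genes 3 were called down, beside 0.639% of all tested genes, and of 307 zinc finger genes (Zfp) 2, a share near that of all genes. Replication-dependent histones went both ways, with 4 of 22 up and 3 down.

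The sex-linked RNA of E14.5 replicate 2 was mixed. Its Xist was 128 FPKM, in the range of the animals without Y-linked RNA, while Eif2s3y, Kdm5d, Uty and Ddx3y stood at 9.24% to 17.0% of their levels in E14.5 replicate 1, and both lanes gave like values (Xist 127.6 and 127.7 FPKM, Ddx3y 1.495 and 2.01). At E15.5 replicate 1 had Xist (133 FPKM) and no Y-linked locus, and replicate 2 had Y-linked RNA with Xist at 0.648. Why replicate 2 of E14.5 held both was not tested.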
